A study of Mus musculus with 4 samples.

Results

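The genes described here were 35 genes of glycolysis and of the response to low oxygen, out of 27514 genes listed in both gene tables of the series. The list was chosen on a measured value: Pgk1, the gene of phosphoglycerate kinase, was far higher in knockout than in control cells at embryonic day (E) 9.5, and the question was whether the rest of its pathway moved with it. The difference in Pgk1 is therefore a description and supports nothing. All 35 genes were found by symbol in the E8.5 tables and by Ensembl identifier in the E9.5 tables. They fell into 2 glucose transporters, 2 hexokinases, 8 genes of upper glycolysis, 6 genes of lower glycolysis, 6 genes of lactate and pyruvate handling, 3 genes of oxygen sensing and 8 other targets of the hypoxia response.

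The 4 libraries were single-cell RNA-seq of Swiss Webster mouse embryos, 1 library per group. Control embryos (Ctrl) were Tbx1Cre/+;Rosa26-GFPflox/+ and conditional knockout embryos (cKO) were Tbx1Cre/flox;Rosa26-GFPflox/+, each at E8.5 and E9.5. Per the study, Ctrl and cKO embryos came from different crosses, and somite counts at E8.5 were slightly higher in cKO, with overlapping ranges. Neither can be told apart from genotype. All 4 groups carried the Cre knock-in, which takes the place of a working Tbx1 copy, so the controls were heterozygous for Tbx1. All 4 also carried the GFP reporter, which labels cells with a history of Tbx1 locus activity, and GFP-positive, DAPI-negative cells of pooled embryos were sorted. The rostral body was taken at E8.5, and the pharyngeal apparatus with the heart at E9.5, so stage and dissection cannot be told apart. For both E9.5 groups the study's sample summary adds the back to this tissue. With 1 library per group no test was possible, and every interval below is a 95% interval of counting error only. The Ctrl and cKO libraries held 1434 and 1090 cell barcodes at E8.5, and 5453 and 6266 at E9.5. Below, 4 values in a row follow this order: Ctrl then cKO of E8.5, followed by Ctrl then cKO of E9.5.

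Levels are given in UPM, the unique molecular identifiers (UMIs, each standing for a counted RNA molecule) of a gene per 1000000 UMIs of the genes in both tables. Tbx1, the targeted gene, stood at 86.4, 118, 103 and 134 UPM. It was not lower in either library labelled cKO, and totals per gene do not show which part of the gene was transcribed, so this is no check of the labels. "cKO" below means the library labelled cKO. Isl1 and Tcf21, markers of pharyngeal mesoderm, were present in all 4 libraries at 33.4 to 64.7 and 19.3 to 33.3 UPM. The median depth per cell was 15910.5 to 23984 UMIs, the deepest being cKO E8.5. The 7 erythroid markers summed to 68.3 (Ctrl) and 4.9 UPM (cKO) at E9.5, against 0.634 and 0.233 at E8.5, where 3 of the 7 were at 0. The 5 neural crest markers summed to 28.9 to 35.6, and the 10 immediate early and heat shock genes to 170 to 308. The part of these differences in the values below was not tested. There were 31053 genes in the table of cKO E9.5, and 27998 in each of the others. Gene table, genotype and library cannot be told apart at E9.5, whereas both E8.5 libraries had the same table. Of the barcode sequences, 55 occurred in both E9.5 libraries, and 2 to 10 in each other pair.

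Glycolysis splits glucose into pyruvate. Transporters (Slc2a genes) let glucose in, hexokinases trap it as a phosphate, the upper steps invest energy and cut the sugar, and the lower steps give ATP. Lactate dehydrogenase turns pyruvate into lactate, which Slc16a transporters carry across the membrane, while pyruvate dehydrogenase kinases (Pdk genes) hold pyruvate back from the mitochondria. The transcription factor subunit Hif1a accumulates when oxygen is low, because the Egln prolyl hydroxylases that mark it for breakdown need oxygen. It then raises many of these genes by binding DNA at the core letters ACGTG or GCGTG. Embryos of these stages are known for high glycolysis, and Hif1a activity is needed for normal heart and vessel growth.

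The ACGTG core was searched in promoters of RefSeq genes on GRCm38.p6, on both strands, from 250 bases before to 50 bases after each start. Promoters of 32 of the 35 genes were matched, and 24 of the 32 (75%) held the core, against 21.8% of all 27025 genes in the table. GCGTG was in 22 of the 32 (68.8%), against 35.2% of all genes. ACGTG is also part of the E-box CACGTG, which other factors bind. A match is only a description. Shown here are all matches in genes that lay past the fold in a comparison of genotypes (below), each read 5′ to 3′ on the strand given, with the core in capitals:
Slc2a1, chr4:119108699-119108723 (+): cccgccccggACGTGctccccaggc
Hk2, chr6:82774666-82774690 (+): cagagttgggACGTGtgttccgtgg
Hk2, chr6:82774492-82774516 (+): ccggacagtgACGTGgatgtgctca
Aldoc, chr11:78323090-78323114 (-): ccgcagagctACGTGactccctggg
Pgk1, chrX:106186940-106186964 (+): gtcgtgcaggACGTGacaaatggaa
Pgk1, chrX:106186959-106186983 (-): gactagtgagACGTGctacttccat
Slc16a3, chr11:120949030-120949054 (+): ggcagcggtgACGTGcgcgggggac
Slc16a3, chr11:120949043-120949067 (+): tgcgcgggggACGTGccgcgcgacg
Ddit4, chr10:59951943-59951967 (-): aacgttgcgaACGTGcgcccggtgc
ACGTG was not found in the windows of Gpi1, Pfkl and Eno1, though GCGTG was in those of Pfkl and Eno1, and no window of Slc2a3, Bnip3l or Ndrg1 was matched.

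Pgk1 (chromosome X, 106187100 to 106203699, GRCm38.p6) stood at 254, 151, 57.9 and 811 UPM. The cKO E9.5 value was the highest of the 4 and the Ctrl E9.5 value the lowest. The log2 ratio of cKO to Ctrl at E9.5 was 3.81 (3.77 to 3.85), which ranked 59 among 13825 genes tested. At E8.5 it was -0.75 (-0.81 to -0.70), in the opposite direction. Between stages Pgk1 fell by 2.13 on the log2 scale in Ctrl, whose libraries shared a gene table, and was 2.43 higher in cKO, whose libraries did not.

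Pgk1 was detected in nearly every cell of cKO E9.5, and its level was higher there in every group of cells. After every cell was thinned to 10000 UMIs, a Pgk1 UMI was found in 5539 of 5548 cells of cKO E9.5 (99.8%, exact binomial interval 99.7 to 99.9), and in 42.5% (41.1 to 43.9) of 4898 cells of Ctrl E9.5. The shares at E8.5 were 91.3% of Ctrl and 76.2% of cKO cells. Without thinning, the same cells gave 99.98%, 62.1%, 97.8% and 96.1%, respectively. Cells were also gated by markers: a cell was placed in the group with most of its 5 markers detected, at least 3, and ties were left out. The groups are ranges of marker counts and not types. At E9.5 Pgk1 lay between 47.8 and 73.8 UPM in the 7 Ctrl groups, and between 698 and 1108 UPM in the cKO groups. The log2 ratio ran from 3.66 in BrM-like cells (branchiomeric muscle markers such as Tcf21) to 4.11 in neural-like cells, and was 3.78 in cells of no group.

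**Figure D1:**
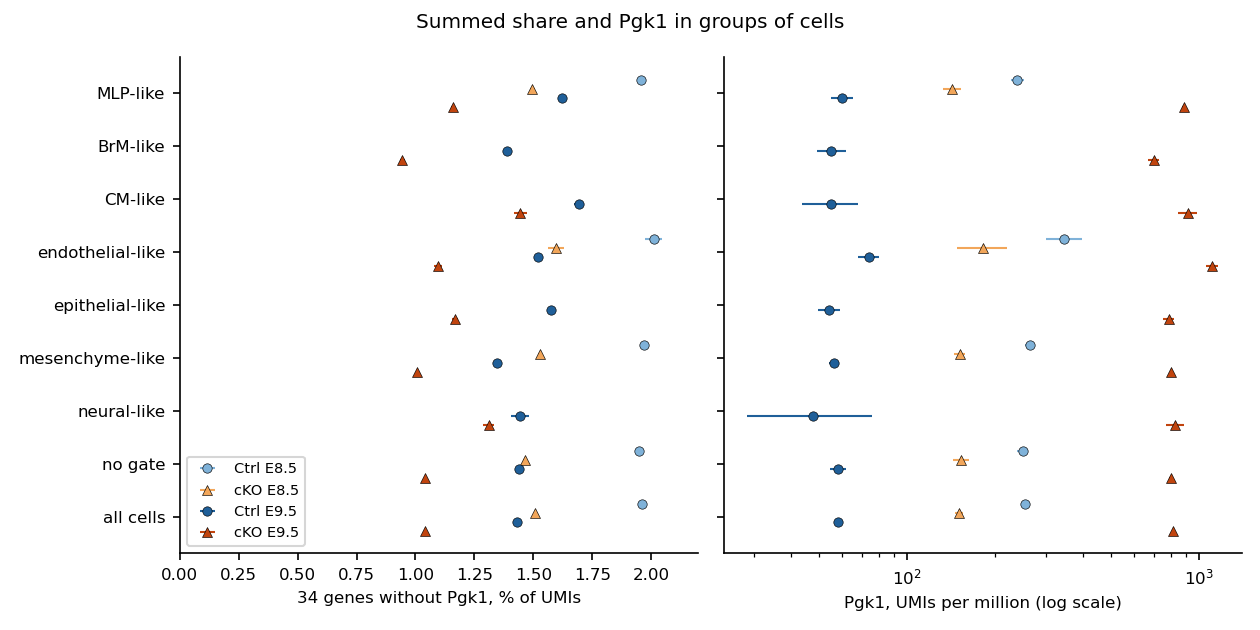
Left, UMIs of the 34 genes without Pgk1 as a percentage of all shared-gene UMIs. Right, Pgk1 in UPM on a log scale. Each point is a group of cells in 1 library and each bar the 95% counting interval. On the left the cKO point lies below the Ctrl point of its stage in every group, and on the right the cKO E9.5 points lie above all others.

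Counts of Pgk1 are uncertain because the genome holds near-copies of it. Against the mouse genome NCBIM37, the 1254 bases of its coding sequence matched 2 other places without a mismatch and without introns, on chromosome 12 (10905794 to 10907047) and on chromosome 3 (57906916 to 57908169). The place on chromosome 12 is annotated as the pseudogene Pgk1-rs7. Pgk1-rs7 was listed with 169 and 111 UMIs at E8.5 (Ctrl and cKO) and with 171 UMIs in Ctrl E9.5, and the table of cKO E9.5 did not list it. In all, 15 genes named as copies were listed only in the shorter table. Of the 14 parent genes with enough UMIs, 8 were higher in cKO E9.5 than in Ctrl E9.5 past the fold defined below, and 1 was lower. At E8.5, where both libraries had the shorter table, 0 of 13 were higher and 1, Pgk1 itself, was lower. Most of these parents code for ribosomal proteins, and 28 of 69 other ribosomal protein genes were higher too. This set was picked after values were seen. How much of the Pgk1 value belongs to the gene table cannot be told apart from genotype.

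Of the 35 genes, Pgk1 included, 9 had a near-copy of the coding sequence (at least 95% identical over at least 80%), 8 had one of the transcript end, and 24 had neither. Gapdh, glyceraldehyde-3-phosphate dehydrogenase, had 68 near-copies of its coding sequence, of which 3 were identical. Eno1, Pkm, Ldha, Ldhb, Pgam1, Bnip3 and Bnip3l had 1 to 3 each. Slc2a1, Slc2a3, Pfkl and Slc16a3 had none.

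The other 34 genes together were lower, not higher, in cKO at E9.5, whereas at E8.5, and between stages in Ctrl, their sum differed in the same direction as Pgk1. At E8.5 they summed to 1.96% of UMIs in Ctrl (1.955 to 1.966) and 1.51% in cKO (1.504 to 1.514). At E9.5 they summed to 1.43% in Ctrl (1.430 to 1.435) and 1.04% in cKO (1.037 to 1.041). The share was lower in cKO at both stages, by 0.46 on the log2 scale at E9.5 and by 0.38 at E8.5, and lower at E9.5 than at E8.5 in both genotypes. With Pgk1 the E9.5 difference was -0.36. These sums were not measured from the median gene, the median log2 ratio of all genes tested. It was at -0.26 at E9.5 and at 0.04 at E8.5. Part of the lower share at E9.5 was therefore common to the median gene, whereas at E8.5 none of it was. The shares per cell below were not measured from it either. Single cells showed the same order: the median share per cell was 2.02%, 1.53%, 1.38% and 1.01%. Of cKO cells, 97.6% at E8.5 and 91.0% at E9.5 lay below the median Ctrl cell of their stage.

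**Figure D2:**
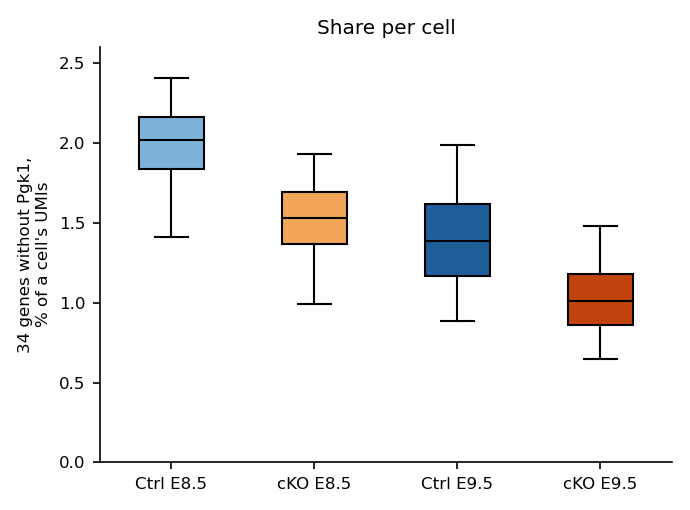
Share of each cell's UMIs held by the 34 genes without Pgk1, in percent, by library. Boxes give the quartiles with the median as a line, and whiskers run from the 5th to the 95th percentile. The median falls from 2.02% in Ctrl E8.5 to 1.01% in cKO E9.5. Shares are not measured from the median gene, and cells of a library are not replicates.

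In calls per gene, a gene was tested with at least 50 UMIs over both libraries. It counted as higher or lower when its log2 ratio lay at least 1.5 times from the median gene, with the counting interval on that side of the median. Measured against the median gene, a value does not move with the scaling of a library. At E9.5 the median gene was at -0.26, so a log2 ratio of -0.26 is no difference from it. There, 6 of the 35 genes were lower, against 11% of all 13825 genes, and 1, Pgk1, was higher, against 10.4%. The share of lower genes was thus not far from the background, but 26 of 35 lay below the median gene, and the median of the 35 was -0.27 from it. At E8.5, 5 of 35 were lower, against 3.06% of 11393 genes, and 1 was higher, against 5.53%. The median of the 35 was -0.30 from the median gene, and 29 lay below it. The pairs of libraries at the 2 stages share no library. Of the 35 genes, 23 lay below the median gene at both stages, against 26.3% of 11373 genes tested at both, and 3 lay above it at both, against 26.7%.

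**Figure D3:**
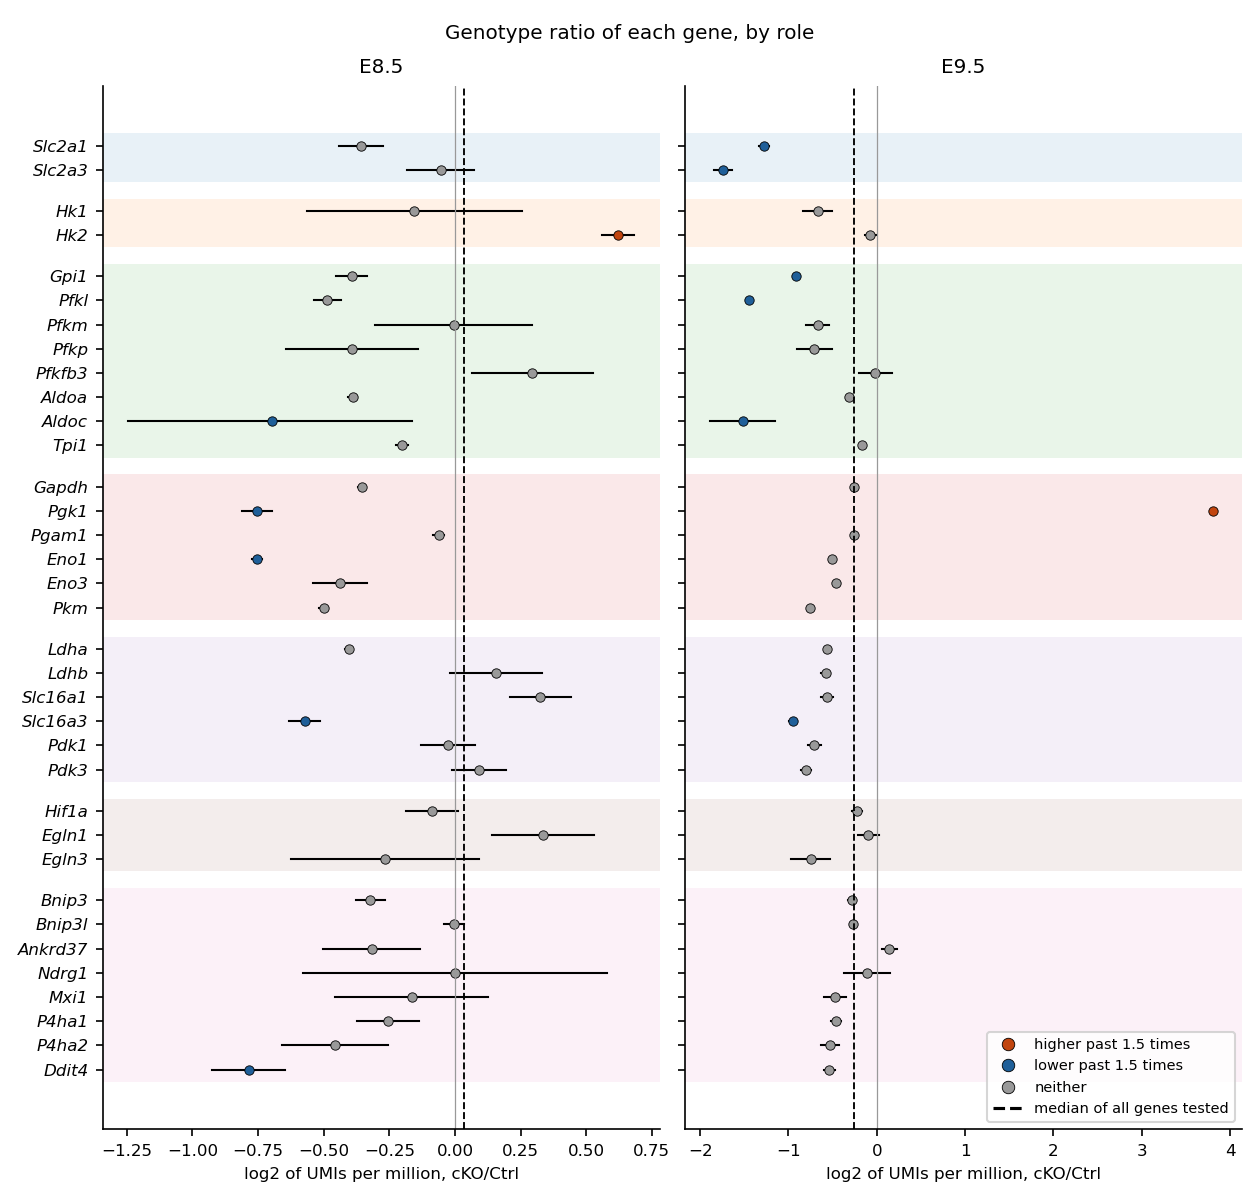
Log2 ratio of cKO to Ctrl for each of the 35 genes, the earlier stage on the left, shaded by role from glucose transporters at the top to other hypoxia targets at the bottom. Bars are 95% counting intervals and the dashed line is the median of all genes tested. The horizontal scales differ between panels. Pgk1, at 3.81, is the only red point on the right.

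Both glucose transporters were lower past the fold at E9.5 over all cells. Slc2a1 (GLUT1, the widespread basal transporter) stood at 105, 81.8, 90.7 and 37.5 UPM. Slc2a3 (GLUT3, with high affinity for glucose) stood at 39.7, 38.2, 35.5 and 10.6 UPM. Both were close among 3 libraries and low in cKO E9.5. The log2 ratios at E9.5 were -1.28 (-1.33 to -1.22) and -1.74 (-1.84 to -1.64), and both were past the fold. At E8.5 they were -0.36 and -0.05.

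The transporter values changed when the cell groups were held equal. In Ctrl E9.5, Slc2a3 was highest in epithelial-like cells (markers such as Epcam), at 162 UPM, and Slc2a1 in endothelial-like cells (markers such as Cdh5), at 310, against 6.98 and 49.0 in mesenchyme-like cells. The gates held 540 epithelial-like and 366 endothelial-like cells in Ctrl at E9.5, and 129 and 89 in cKO. Within mesenchyme-like cells the log2 ratios were -0.70 for Slc2a1 and -0.54 for Slc2a3, neither past the fold. Within MLP-like cells (multilineage progenitor markers, with Arg1 required) they were -0.98 and -2.01, both past it, as both were in BrM-like cells (-1.02 and -1.20). In epithelial-like cells Slc2a3 was -0.28. Slc2a1 was also past the fold in endothelial-like cells (-0.86), and Slc2a3 in CM-like cells (cardiomyocyte markers, -0.78). When gate levels were averaged with the cell shares of Ctrl E9.5 for both libraries, Slc2a1 came to -0.75 and Slc2a3 to -0.53. Such averages leave out the cells of no group, 1074 in Ctrl and 1346 in cKO. In those cells the ratios were -1.08 for Slc2a1 and -1.56 for Slc2a3, both past the fold.

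Of the hexokinases, Hk2 was higher in cKO at E8.5. Hk2, the inducible isoform, stood at 138, 212, 42.4 and 40.3 UPM. It was the only one of the 35 past the fold upwards at E8.5, with a log2 ratio of 0.62 (0.56 to 0.68), but only just, at 0.586 from the median gene where the fold asks for 0.585. It was past the fold in endothelial-like (0.83) and mesenchyme-like cells (0.68), and was 0.43 in MLP-like cells. At E9.5 the ratio was -0.07. Hk1, the housekeeping isoform, stood at 4.24, 3.81, 8.13 and 5.11, and over all cells its ratios of -0.15 and -0.67 were not past the fold at E8.5 or E9.5. In CM-like cells (cardiomyocyte markers) at E9.5 Hk1 was lower past it (-1.08, -1.97 to -0.27), with 16 UMIs in cKO.

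In upper glycolysis Pfkl, the liver-type subunit of phosphofructokinase, was lower in every group of cells at E9.5. It stood at 276, 197, 234 and 85.5 UPM, with log2 ratios of -0.49 (-0.54 to -0.43) at E8.5 and -1.45 (-1.49 to -1.41) at E9.5. The E9.5 ratio was past the fold in all 7 groups of cells, from -1.60 in BrM-like to -1.22 in endothelial-like cells. Pfkl UMIs were found in 94.4%, 85.6%, 87.5% and 56.2% of cells thinned to equal depth. Gpi1, glucose-6-phosphate isomerase, stood at 212, 161, 236 and 125 UPM, and its ratio at E9.5 was -0.92 (-0.95 to -0.89). It was past the fold in 5 of the 7 groups, and was -0.64 in epithelial-like and -0.58 in neural-like cells. Aldoc, the brain-type aldolase, had only 226 and 88 UMIs in the E9.5 libraries, and its ratio of -1.51 (-1.88 to -1.15) came to -0.82 with the cell shares held equal. At E8.5 Aldoc was -0.70 (-1.24 to -0.17). Aldoa, the main aldolase, stood at 2234, 1705, 1206 and 967 UPM, and Tpi1, triosephosphate isomerase, at 1298, 1128, 719 and 642 UPM. Their ratios at E9.5 were -0.32 and -0.16, and Pfkm, Pfkp and Pfkfb3 lay between -0.71 and -0.02. Pfkm was lower past the fold in mesenchyme-like cells at E9.5 (-0.83, -1.01 to -0.66).

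In lower glycolysis no gene but Pgk1 was past the fold at E9.5 over all cells, though Pkm was lower past it in BrM-like cells (-0.86). Eno1, the main enolase, stood at 2432, 1441, 1428 and 1002, and was past the fold at E8.5 at -0.76 (-0.77 to -0.74), as it was in MLP-like (-0.80), endothelial-like (-0.86) and mesenchyme-like cells (-0.71). Its ratio at E9.5 was -0.51. Pkm, pyruvate kinase, stood at 3071, 2171, 2495 and 1478, with ratios of -0.50 and -0.76. Gapdh (3107, 2430, 2906 and 2430) and Pgam1 (1413, 1354, 1024 and 857), the phosphoglycerate mutase, were both -0.26 at E9.5, at the median gene. Pgk1 acts between these enzymes in the pathway. Eno3, the muscle enolase, stood at 71.1, 52.5, 125 and 90.8 UPM, with ratios of -0.44 and -0.46.

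Lactate and pyruvate genes lay below the median gene at E9.5 in 6 of 6 cases. Slc16a3 (MCT4, the lactate exporter of glycolytic cells) stood at 232, 156, 137 and 71.0, and was past the fold at both stages, with ratios of -0.57 (-0.63 to -0.51) and -0.95 (-0.99 to -0.91). Ldha, the main lactate dehydrogenase subunit, stood at 3876, 2929, 2735 and 1854, with ratios of -0.40 and -0.56. Slc16a1 (MCT1), Ldhb, Pdk1 and Pdk3 had ratios of -0.57, -0.58, -0.71 and -0.80 at E9.5. Slc16a1 stood at 42.4, 53.2, 40.6 and 27.4 UPM, and Pdk3 at 59.8, 63.7, 69.4 and 39.9 UPM, the lowest level being that of cKO E9.5 for each. At E8.5 none of these 4 was past the fold, with ratios from -0.03 to 0.32. Pdk3 was the gene just outside the fold at E9.5, at -0.54 from the median gene, while Gpi1 was just inside at -0.66. Pdk3 was past the fold in 4 of the 7 groups, among them mesenchyme-like cells (-0.85). At E9.5 Ldhb was lower past it in epithelial-like cells (-1.11, -1.34 to -0.89). The same held in endothelial-like cells (-1.35, -2.70 to -0.25), where cKO had 7 Ldhb UMIs.

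No oxygen sensing gene was past the fold at either stage over all cells. Hif1a stood at 69.1, 65.01, 63.3 and 54.2 UPM, with ratios of -0.09 at E8.5 and -0.22 at E9.5. Egln1 and Egln3, prolyl hydroxylases of which Egln3 is itself a target of the pathway, had ratios of -0.09 and -0.75 at E9.5, and neither was past the fold. Within endothelial-like cells at E9.5, Egln1 was past the fold upwards, at 0.66 (-0.03 to 1.31) where the median gene was at -0.20. The Egln3 difference was not seen within mesenchyme-like (0.25), MLP-like (0.25) and BrM-like cells (0.03), and was negative in endothelial-like (-0.50) and epithelial-like cells (-1.18), with intervals that all held 0. It came to -0.27 with the cell shares held equal. Hif1a activity is set mainly by protein stability, so its RNA is no measure of it.

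Of the other hypoxia targets none was past the fold at E9.5 over all cells, and their ratios there ran from -0.54 to 0.14. Within groups at E9.5, Ankrd37 was higher past it in endothelial-like cells (0.584, 0.153 to 0.998). Bnip3 was higher past it in neural-like cells (0.66, 0.12 to 1.23), where Ctrl had 36 Bnip3 UMIs. None of these targets was lower past it in a group. Bnip3 (mitochondrial clearance) stood at 221, 177, 90.0 and 74.1, and its ratio at E9.5 was -0.28. Bnip3l, its paralog, stood at 423, 422, 317 and 263. Ankrd37 was, apart from Pgk1, the only one of the 35 whose level was highest in cKO E9.5. It stood at 21.4, 17.1, 19.6 and 21.7 UPM, and the highest of these lay within counting error of the Ctrl E8.5 value. P4ha1 and P4ha2, prolyl hydroxylases of collagen, were -0.46 and -0.53, Mxi1 -0.48 and Ndrg1 -0.11. Ddit4 (REDD1, an inhibitor of mTOR signalling) stood at 45.7, 26.5, 50.7 and 34.9, and was past the fold at E8.5 at -0.79 (-0.92 to -0.65).

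**Figure D4:**
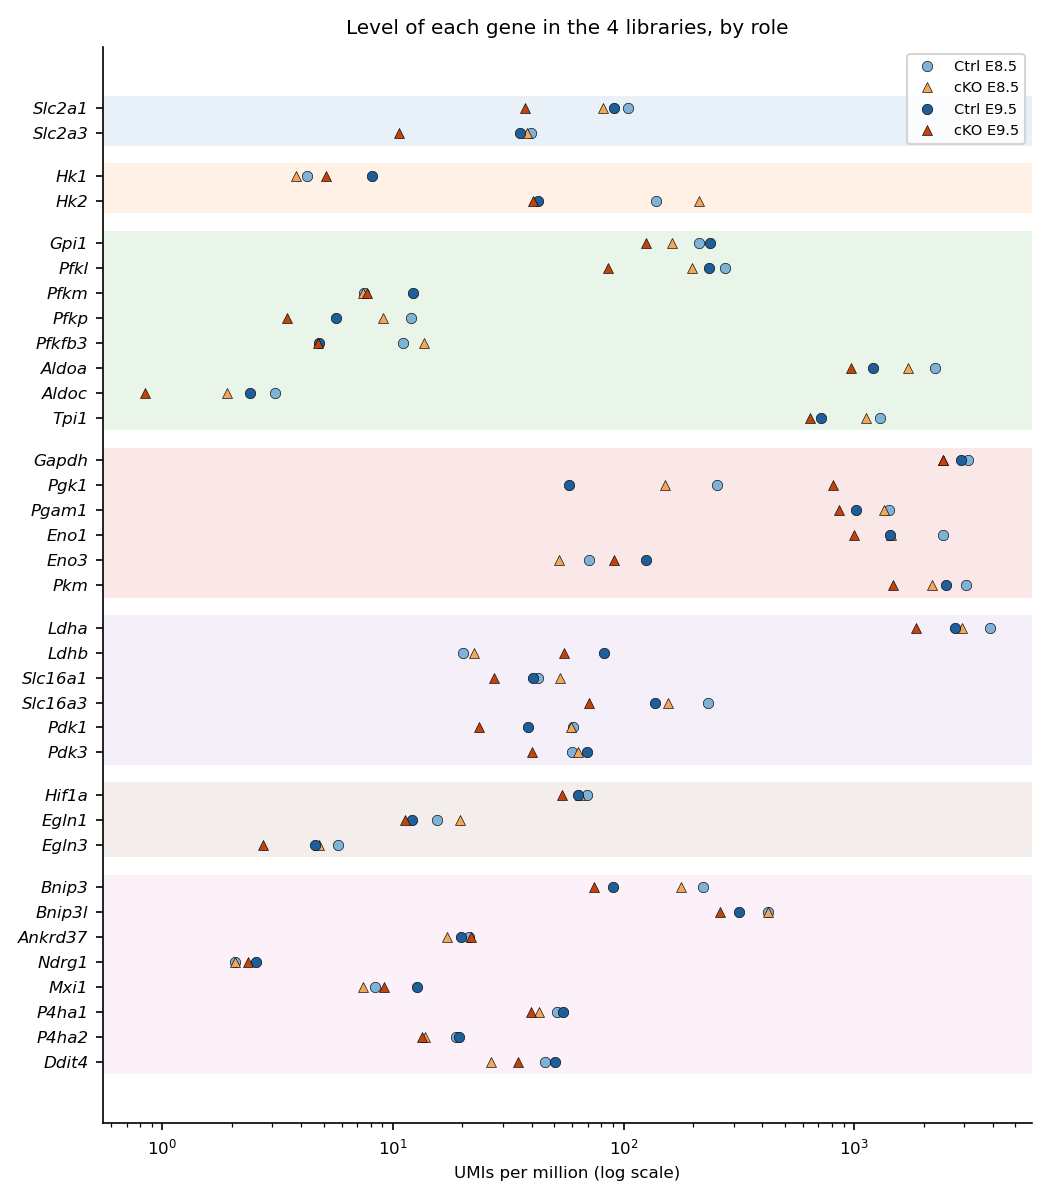
Level of each of the 35 genes in UPM on a log scale, with circles for Ctrl, triangles for cKO, pale colours for E8.5 and dark colours for E9.5. For most rows the dark triangle (cKO E9.5) is the leftmost point, and Pgk1 is the exception with its dark triangle at 811.

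In 25 of the 35 genes the cKO E9.5 level was below all of the other 3 libraries, against 27.8% of 14135 genes, and in 2, Pgk1 and Ankrd37, it was above them, against 17.8%. Counts within groups were given for the 3 with most cells over both E9.5 libraries: 5 of the 35 genes were lower past the fold in mesenchyme-like cells, against 7.59% of all genes, 6 of the 33 tested in MLP-like cells, against 8.1%, and 2 of the 32 tested in epithelial-like cells, against 6.34%, which is no more than the background. The summed share of the 34 genes was lower in cKO in each of the 7 groups at E9.5, from -0.56 (-0.58 to -0.54) in BrM-like to -0.23 (-0.26 to -0.20) in CM-like cells (cardiomyocyte markers) and -0.14 (-0.19 to -0.09) in neural-like cells, where Ctrl E9.5 held 22 cells. At E8.5 it was -0.39 in MLP-like, -0.33 in endothelial-like and -0.36 in mesenchyme-like cells. The medians of all genes in these groups at E9.5 were -0.26 to -0.09, and in CM-like cells the median of the 27 genes tested was -0.01 from that of all genes. Of the Ctrl E9.5 mesenchyme-like cells, 883 of 2631 had exactly 3 markers, and 469 cells fell just short with 2.

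Between stages many of the 35 genes were lower at E9.5, in both genotypes. The median gene was at 0.38 in Ctrl and 0.05 in cKO. From E8.5 to E9.5 in Ctrl, 19 of 35 were lower past the fold, against 13.4% of 13103 genes, and 1, Ldhb, was higher, against 14.8%. In cKO 20 of 35 were lower, against 12.5% of 13020 genes, and 3 (Pgk1, Ldhb and Eno3) were higher, against 15.2%. The cKO libraries also enter the comparisons above. Hk2 fell by 1.70 in Ctrl and by 2.40 in cKO on the log2 scale, Bnip3 by 1.30 and 1.26, Aldoa by 0.89 and 0.82, and Pfkfb3, an activator of phosphofructokinase, by 1.21 and 1.52. Ldhb, the subunit that favours lactate use and is known from oxygen-rich tissue, rose from 20.1 to 82.0 UPM in Ctrl and from 22.4 to 54.9 in cKO.

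Shares within pairs of related genes do not depend on library totals. They can still differ with the mix of cells, and are over all cells unless a group is named. Ldhb, Eno3, Hk1 and Pdk1 shares differed more between stages than between genotypes. Ldhb made up 0.517%, 0.76%, 2.91% and 2.88% of Ldha and Ldhb UMIs, and the E9.5 intervals overlapped (2.849 to 2.977 and 2.804 to 2.951). Within groups at E9.5 the Ldhb share was lower in cKO in epithelial-like (5.32% in Ctrl, 3.87% in cKO) and MLP-like cells (3.98%, 3.46%). It was higher in cKO in mesenchyme-like cells (2.40%, 2.71%). Intervals lay apart in these groups and overlapped in the others. Eno3 went from 2.84% and 3.52% of enolase UMIs to 8.03% and 8.31%. Hk1 went from 2.98% and 1.76% of hexokinase UMIs to 16.1% and 11.3%, and Pdk1 fell from 50.3% and 48.2% of Pdk1 and Pdk3 UMIs to 35.6% and 37.1%. The lactate transporters differed by genotype and by stage: Slc16a1 made up 15.5%, 25.4%, 22.8% and 27.8% of Slc16a1 and Slc16a3 UMIs. Its share was higher in cKO at both stages, and higher at E9.5 in both genotypes. The Slc2a3 share of transporter UMIs was 27.4%, 31.8%, 28.1% and 22.1%, higher in cKO at E8.5 and lower at E9.5. Within groups at E9.5 the direction was not the same. In Ctrl and cKO it was 32.4% and 18.9% in MLP-like cells, but 53.3% and 60.3% in epithelial-like cells, with intervals apart in both. In mesenchyme-like cells it was 12.5% and 13.7%, with overlapping intervals. Pfkl made up 93.4%, 92.3%, 92.9% and 88.4% of the UMIs of Pfkl, Pfkm and Pfkp, and Aldoc 0.138%, 0.112%, 0.198% and 0.0869% of those of Aldoa and Aldoc, both lowest in cKO E9.5. In mesenchyme-like cells at E9.5 the Aldoc share was 0.0518% in Ctrl and 0.0488% in cKO, with overlapping intervals.

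**Figure D5:**
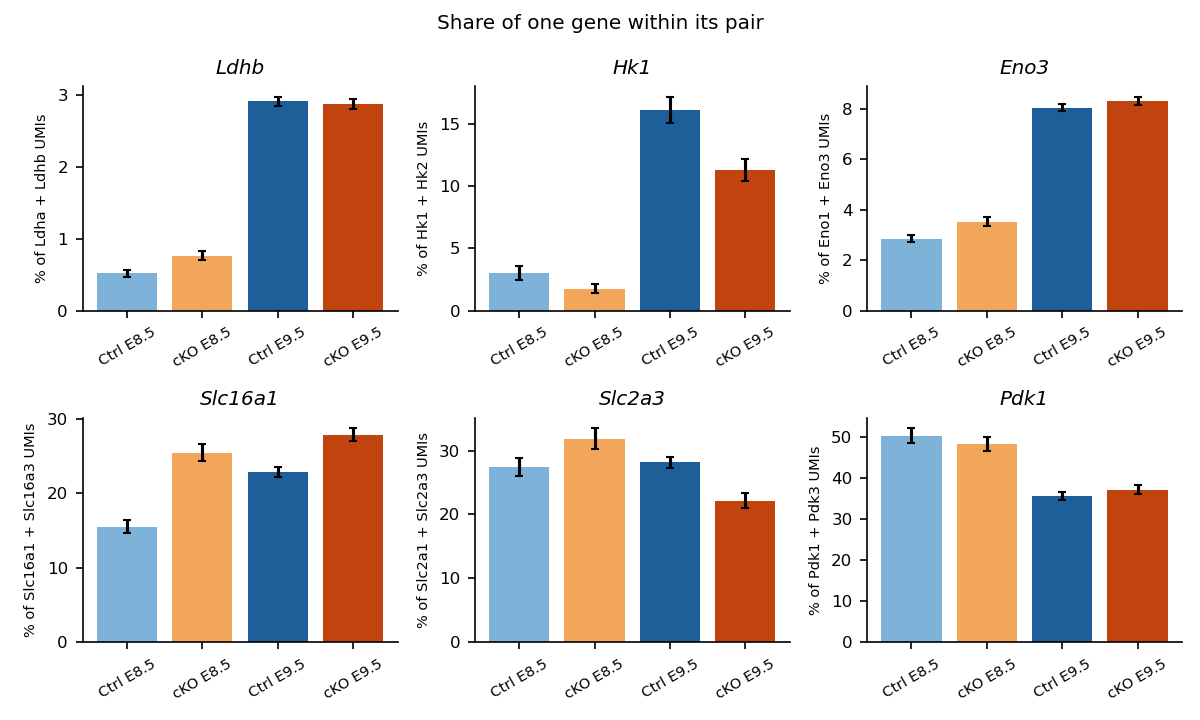
Share of the named gene in the UMIs of its pair, in percent, over all cells of each library, with exact 95% binomial intervals. Ldhb, Hk1 and Eno3 are several times higher at E9.5 than at E8.5 in both genotypes, and Slc16a1 is higher in cKO than in Ctrl at both stages.

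Groups of cells differed in these genes too. In Ctrl E9.5, CM-like cells held the highest level of 10 of the 35 genes with an interval apart from the next group, endothelial-like cells of 5, epithelial-like cells of 3 and neural-like cells of 1. The same count was not made over all genes, so whether these numbers are many or few cannot be told. Intervals were compared only with the group next in level, and a smaller group further down can still overlap. Eno3 stood at 433 UPM in CM-like and 14.9 in endothelial-like cells, and Hif1a at 156 in CM-like and 49.0 in BrM-like cells. Pdk1 was highest in endothelial-like cells at 102. Ldhb was lowest there, at 12.5, against 163 in epithelial-like cells.

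Of 42 other genes of glycolysis and the hypoxia response, 36 had enough UMIs at E9.5. Of these, 4 were lower past the fold (Bhlhe40, Txnip, Gbe1 and Stc2), against 11% of all genes, and 2 higher (Pdk4 and Epas1), against 10.4%. These shares were close to or below the background, and their median was 0.01 from the median gene. Pdk4 was low, at 0.191 (Ctrl) and 0.334 UPM (cKO) at E9.5, with a log2 ratio of 0.81 (-0.05 to 1.72). Epas1 was at 0.668 and 0.889 UPM, with a ratio of 0.41 (-0.07 to 0.90). Both intervals held 0. Stc2, a secreted glycoprotein, stood at 16.3, 14.4, 3.97 and 1.36 UPM, and Txnip, which limits glucose uptake, at 5.79, 6.22, 10.3 and 4.66 UPM. At E8.5, 1 of 30 (Car12) was higher, against 5.53% of all genes, and 0 were lower, against 3.06%. Of 22 genes of pyruvate entry and the citric acid cycle, 2 were higher at E9.5 (Mpc1 and Mpc2, which form the mitochondrial pyruvate carrier), against 10.4% of all genes, and the median of the 22 was -0.11 from the median gene. At E8.5, 0 of 22 were past the fold in either direction. Between stages, 4 of 35 other pathway genes were higher and 9 lower in Ctrl, where 14.8% and 13.4% of all genes were. In cKO 4 of 33 were higher and 10 lower, where 15.2% and 12.5% of all genes were. Of the 22 genes of pyruvate entry and the citric acid cycle, 3 were higher in Ctrl and 2 in cKO, and 0 were lower in either, beside the same backgrounds.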

How the data were processed

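Per the study's methods, the authors aligned 10x Genomics 3′ reads to the mm10 mouse genome with Cell Ranger 3.1.0, and the deposited files hold raw UMI counts per gene and barcode without normalization. The headers of the E8.5 matrices name Cell Ranger 3.0.2, and those of E9.5 name no version. Cell Ranger by default counts reads assigned to a single gene, so a gene table with and without a listed copy can give different counts of the parent.

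Every deposited barcode was kept, and no doublet caller was run. UMIs were summed over cells, over the genes listed in both tables, and divided by their total, which was 25236185 (Ctrl) and 25733964 (cKO) UMIs at E8.5, and 94273154 and 104635590 at E9.5. Log2 ratios carry exact conditional binomial intervals, levels exact Poisson intervals and shares exact Clopper-Pearson intervals, all at 95%. They cover counting error only. Groups had at least 20 cells in a library, and cells tied between groups were left out. Sequences were matched with BLAST+ 2.17.0 to NCBIM37, and promoters and gene positions came from RefSeq tables of GRCm38.p6. Calculations used Python 3.11.15, NumPy 2.4.6 and SciPy 1.17.1, and edgeR 4.0.16 gave TMM factors as an alternative. The procedure was tested on simulated data. All 35 genes were named by role, and of other lists those past the fold. For 1 gene of the other lists the result is not reported here. The genes and lists were chosen with earlier results of these data known.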

Additional observations from a re-analysis of the deposited data

Results flagged for a closer look

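Pgk1 went opposite ways under the same contrast, and the difference was not tested, because each group had 1 library. Its log2 ratio of cKO to Ctrl was 3.81 at E9.5 and -0.75 at E8.5, and its log2 ratio of E9.5 to E8.5 was -2.13 in Ctrl and 2.43 in cKO. All 4 values share libraries, and the 2 high values are those with cKO E9.5 on 1 side.

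Pgk1-rs7, a gene outside the comparisons because only the shorter gene table lists it, had UMIs above the limit that a count of 0 allows (3 UMIs): 169 and 111 at E8.5 in Ctrl and cKO, and 171 in Ctrl E9.5.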

How the results depend on the processing

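TMM factors and other totals shift all genes alike, so they could not change the median of the 35 genes measured from the median gene. That median stayed below the median gene in all 4 comparisons with filtered or thinned cells, equal weights for cells and no barcodes in more than 1 library. The same held with no minimum count, without Pgk1 and, within a stage, with equal cell shares. With these it ran from -0.28 to -0.23 at E9.5 and from -0.31 to -0.21 at E8.5. Not centred, it was -0.53 at E9.5 and -0.24 between stages in Ctrl. No called gene turned direction under an alternative. The 1050 single-gene values looked at include those of genes not called, for which a turn was not counted. Without the genes with a near-copy (chosen after seeing the data) the median was -0.52 between stages in Ctrl and -0.86 in cKO, and counts past the fold were 0 higher at E9.5, 3 lower at E8.5, 0 higher and 11 lower between stages in Ctrl, and 1 higher in cKO. At 2 times, 0 were higher and 0 lower at E8.5, and 10 and 11 were lower between stages in Ctrl and cKO. Shares of all genes are not given here for the counts at 2 times or for those without near-copy genes. Whether these counts differ from the background therefore cannot be told. The summed difference at E9.5 was -0.46 without Pgk1 and -0.55 without Pgk1, Gapdh and Aldoa. With at least 4 of 5 markers it was -0.53 in BrM-like, -0.26 in CM-like, -0.50 in epithelial-like, -0.43 in mesenchyme-like cells and, at E8.5, -0.37 in MLP-like cells. With cells thinned before gating it was -0.51, -0.18, -0.41 and -0.40 in the same 4 groups, -0.44 in endothelial-like and, at E8.5, -0.40 in MLP-like cells. With at least 2 markers it was -0.23 in neural-like cells. Too few cells were left for neural-like cells in both stricter settings and for endothelial-like cells with 4 markers at E8.5. Not thinned (chosen after seeing the data), shares of cells with Pgk1 were 97.8% and 96.1% at E8.5 and 62.1% and 99.98% at E9.5. The causes were not tested. No paired analysis was possible because each group had 1 library. Intervals of genes under 100 UMIs, such as Aldoc, limit what can be said of them.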
